A study of Mus musculus with 4 samples.

Results

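Transcripts of 42 immunoglobulin genes, of 54532 genes in the count table, were measured by RNA sequencing in libraries described as tumor-associated macrophages (TAMs) of NB9464 tumors. An immunoglobulin is made of heavy and light chains, each with a variable (V) region that binds antigen and a constant region, and B cells and the plasma cells derived from them assemble each chain gene by joining a V segment to joining segments upstream of a constant gene. Class switching replaces the mu constant gene (*Ighm*) by a gamma, alpha or epsilon gene, and the light chain is either kappa (*Igkc*) or lambda (*Iglc1* to *Iglc4*). The joining chain (*Jchain*) links IgM and IgA into polymers. Macrophages do not rearrange these genes but carry receptors for the constant regions of secreted antibodies.

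The genes were selected on their symbol and on a summed count of at least 5 over the 4 libraries. Symbols of V genes (*Ighv*, *Igkv*, *Iglv*), of constant genes (*Ighm*, *Ighd*, *Ighg*, *Igha*, *Ighe*, *Igkc*, *Iglc*) and *Jchain* matched 362 genes. Of these, 276 had 0 counts in all libraries, 44 had 1 to 4 counts and 42 passed the minimum. The 42 are 7 of 8 heavy constant genes, *Igkc*, 3 of 4 lambda constant genes, *Jchain*, 8 of 185 heavy V genes, 21 of 160 kappa V genes and 1 of 3 lambda V genes. *Ighe*, the constant gene of IgE, had 0 counts in every library. None of the 130 V pseudogenes was selected, and 19 D genes, 3 D pseudogenes and 14 J genes had 0 counts. At the minimum, 6 kappa V genes had exactly 5 counts (*Igkv17-127*, *Igkv4-57-1*, *Igkv4-86*, *Igkv3-1*, *Igkv14-100* and *Igkv2-109*), and 5 V genes just below it had 4 (*Igkv15-103*, *Igkv8-30*, *Igkv8-24*, *Ighv7-3* and *Ighv1-9*).

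NB9464 is a *MYCN*-amplified neuroblastoma line of the mouse. Mice of both genotypes, 4 to 6 weeks old on the C57BL/6 background, received NB9464 cells and no treatment, and tumors were taken on day 40. The KO mice (Syk MC-KO) carry floxed *Syk* and a Cre recombinase driven by the lysozyme M gene (*Lyz2*), which directs the deletion to myeloid cells and not to lymphocytes. TAMs were isolated by CD11b and F4/80 magnetic beads, and 2 libraries are labelled SYK WT (M7 and M8) and 2 SYK KO (M9 and M10). A line of the labels names bone marrow derived macrophages (BMDMs) as the source of RNA. One label also names an adoptive transfer, which the other labels do not describe. In the study's transfer experiments TAMs of either genotype were injected with tumor cells into mice of either genotype, and whether these libraries come from such tumors, and so whether a label gives the genotype of the host or of injected macrophages, is not given in the sources used here. Nothing in the labels says whether the libraries of a group come from separate mice, so a p-value measures only the spread between these libraries. Totals ran from 20755886 to 23518045 counts.

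The genotype labels were checked first. *Syk* had 765 counts in M7 and 569 in M8 against 4033 in M9 and 2944 in M10, which goes against the labels, although counts per gene do not separate the deleted part of *Syk* from the rest. *Lyz2*, the macrophage lysozyme gene into which the usual lysozyme M Cre is inserted, fell from 8109 counts in M7 and 5115 in M8 to 178 in M9 and 371 in M10 (log2 fold change -4.13, SE 0.433, adjusted p = 0.00156). Whether libraries were exchanged was not tested, and directions below are given for the libraries as labelled. All 10 macrophage markers and all 6 pan-leukocyte markers rose in the libraries labelled SYK KO, with median log2 fold changes of 2.82 and 3.57, and 5 of 8 fibroblast markers fell, with a median of -1.49. In CPM (counts scaled to a common library size, adjusted by TMM), the 8 fibroblast genes summed to 12689 in M7 and 14596 in M8. The 10 macrophage genes summed to 1305 and 915 in the same libraries. In M9 and M10 the fibroblast sums were 4094 and 5029, and the macrophage sums were 10398 and 6346. Markers of other leukocytes also rose (5 of 5 neutrophil, 5 of 8 T cell, 4 of 6 dendritic cell and 1 of 4 NK cell genes tested), as did 1 of 2 tumor cell genes, and 2 of 6 endothelial genes fell. The mitochondrial share of counts was 2.20% and 2.34% in M7 and M8, 6.00% in M9 and 15.9% in M10. The part of these differences in the immunoglobulin values was not tested, and in bulk samples fewer cells of a type and less RNA per cell cannot be told apart.

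Summed over the 42 genes, immunoglobulin counts were about 20 times higher in the libraries labelled SYK KO. M7 and M8 had sums of 119 and 109 counts, and M9 and M10 had sums of 1912 and 1517. As CPM, the level was 4.39 ± 0.0686 (SD, n = 2) in the libraries labelled SYK WT. It was 87.7 ± 7.19 (SD, n = 2) in those labelled SYK KO, which gives a ratio of 20.0 and a log2 ratio of 4.32. The same ratio was 1.55 on the log2 scale with libraries scaled to macrophage genes and 0.68 with libraries scaled to pan-leukocyte genes. Immunoglobulin transcripts were rare in all libraries, at 0.00813% of counts in M9, where they were highest. *Ighm* and *Igkc* together held 79.3% of the 3657 counts.

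By class, the log2 ratio of summed CPM was 5.75 for the kappa constant gene, 5.41 for the selected kappa V genes, 4.11 for the heavy constant genes, 3.84 for *Jchain* and 2.88 for the lambda constant genes. Selected V genes had to reach a minimum, which genes counted only in the libraries labelled SYK KO could do. Over all genes of each class with no minimum, the log2 ratio was 4.97 for the 160 kappa V genes and 3.57 for the 185 heavy V genes.

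**Figure D1:**
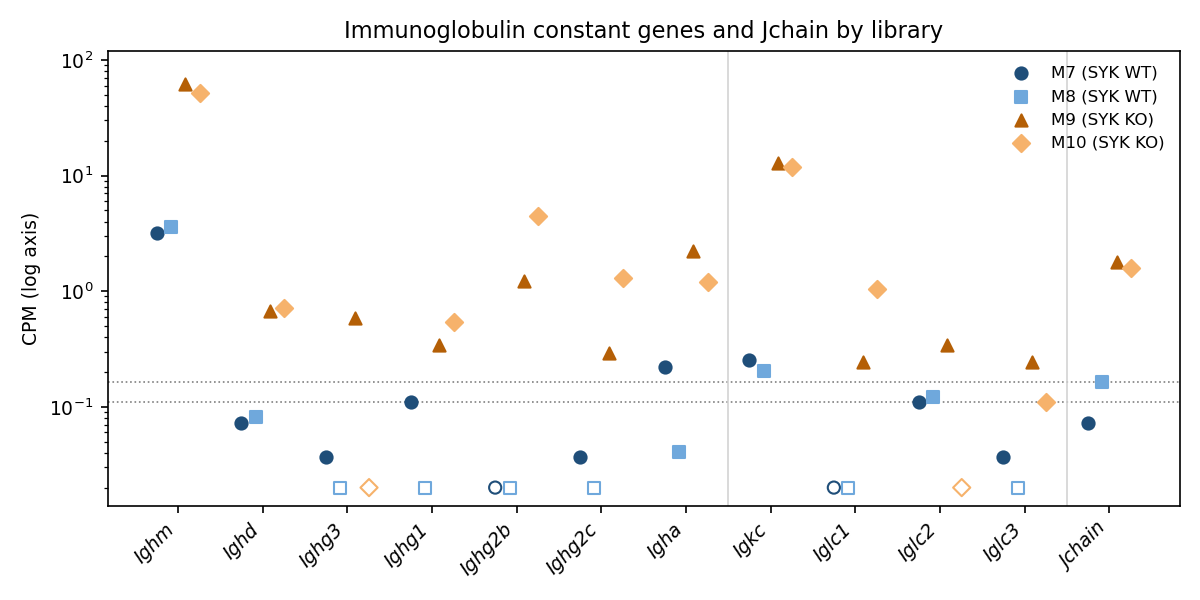
Expression of the immunoglobulin constant genes and *Jchain* in each library, in CPM on a log axis. Open symbols at the bottom are libraries with 0 counts. The dotted lines give the CPM that 3 counts stand for in the libraries of largest and smallest TMM-adjusted size, M7 and M10. *Ighm* and *Igkc* were highest in M9 and M10, and most other genes were near or below 3 counts in M7 and M8.

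Tests were run with edgeR's quasi-likelihood test over 16451 genes that passed a filter on low counts, with Benjamini-Hochberg adjustment. Of the 42 genes 7 passed the filter, and all 7 rose in the libraries labelled SYK KO (*Ighm*, *Ighd*, *Ighg2b*, *Igha*, *Igkc*, *Jchain* and *Igkv3-2*), beside 22.7% of all genes tested. All 7 estimates were positive, so none was lower at any threshold, and 16.7% of all genes tested were lower at an adjusted p under 0.05. DESeq2 gave an adjusted p for 12 of the 42 genes and called 8 higher and 0 lower, beside 19.6% and 15.9% of the 18316 genes to which it gave one, and all 42 of its estimates were positive. For 6 of the 7 both SYK WT libraries had under 10 counts, so that they entered the test only through the libraries labelled SYK KO and had to differ. The median log2 fold change of the 7 was 4.07, also with *Ighg2b* at its lower bound, against 0.02 over all genes tested. Among all genes 57.6% of calls were higher with TMM, and 23.7% with total counts, 2.56% with plasma cell genes, 0.926% with macrophage genes and 0.359% with pan-leukocyte genes as the scale.

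Without the filter, where all 42 genes were fitted, 10 rose (23.8%), beside 15.7% of all 26596 genes with at least 1 count. That background includes genes below the minimum of 5 counts that the 42 had to reach, so the shares are for unlike sets. The 10 left out *Ighd* (adjusted p = 0.0728) and added *Ighg2c* (adjusted p = 0.00634), *Iglc1* (adjusted p = 0.00442), *Ighv1-64* (adjusted p = 0.0234) and *Igkv1-117* (adjusted p = 0.0462). In CPM, both libraries labelled SYK KO were above both labelled SYK WT for 24 of the 42 genes (57.1%), beside 32.2% of all genes with the same minimum count. In both SYK WT libraries 26 of the 42 had 0 counts, so that these could only be higher in the libraries labelled SYK KO.

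*Ighm*, on chromosome 12 of GRCm38 (113418558 to 113422730, minus strand), encodes the mu constant region of IgM. M7 and M8 had 88 counts each, M9 had 1275 and M10 had 957. The groups did not overlap, and the SYK WT libraries had the same count. *Ighm* was 3.39 CPM in the libraries labelled SYK WT and 57.0 in those labelled SYK KO, a log2 fold change of 4.07 (SE 0.204, adjusted p = 0.000486). It was the only member with at least 10 counts in every library. Scaled to pan-leukocyte genes, its log2 fold change was 0.42 (adjusted p = 0.391).

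*Ighd*, which encodes the delta constant region that naive B cells splice from the same transcripts as mu, had 2 counts in each SYK WT library, 14 in M9 and 13 in M10. Its log2 fold change was 3.08 (SE 0.841, adjusted p = 0.0292). The call was lost without M7 or without M8 (adjusted p = 0.403 and 0.407) and with macrophage genes as the scale (0.44, adjusted p = 0.785), and scaled to pan-leukocyte genes the estimate was -0.44 (adjusted p = 0.774).

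Of the switched heavy chains, *Igha* had 6 and 1 counts in M7 and M8, and 46 and 22 in M9 and M10. It encodes the alpha constant region of IgA. Its log2 fold change was 3.65 (SE 0.909, adjusted p = 0.0222), and the call was lost without M7 (5.21, adjusted p = 0.0741) and without M8 (2.93, adjusted p = 0.230). Scaled to macrophage genes the log2 fold change of *Igha* was 0.995 (adjusted p = 0.459), and scaled to pan-leukocyte genes 0.09 (adjusted p = 0.944). *Ighg2b*, the gamma 2b constant gene, had 0 counts in both SYK WT libraries, 25 in M9 and 82 in M10. With a floor of 3 counts in each SYK WT library it was at least 24.6-fold higher in the libraries labelled SYK KO (adjusted p = 0.00852), and the SYK KO libraries differed from each other by more than for *Ighm*.

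The other gamma genes did not pass the filter. *Ighg2c* had 1, 0, 6 and 24 counts in M7, M8, M9 and M10, a ratio of counts per library size of 40.1 with an exact 95% interval from 6.66 to 1634. *Ighg1* had 3, 0, 7 and 10 counts, a ratio of 7.57 with an interval from 2.19 to 40.3. *Ighg3* had 1, 0, 12 and 0 counts, so that it was counted in M9 and not in M10. These intervals cover counting error only.

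The gamma genes are similar, so their sequences show what a read can tell apart. In a 100-base window of the fourth exon of the transcript shown, on the minus strand of GRCm38, *Ighg2b* (chr12:113306434-113306533), *Ighg2c* (chr12:113287434-113287533), *Ighg1* (chr12:113329021-113329120) and *Ighg3* (chr12:113359710-113359809) read as follows from 5′ to 3′. Capitals in *Ighg2b* mark positions where any of the others differs from it, and capitals in the others mark their differences from *Ighg2b*.
Ighg2b: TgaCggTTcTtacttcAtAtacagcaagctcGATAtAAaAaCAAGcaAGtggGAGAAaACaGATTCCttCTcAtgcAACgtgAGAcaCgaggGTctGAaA
Ighg2c: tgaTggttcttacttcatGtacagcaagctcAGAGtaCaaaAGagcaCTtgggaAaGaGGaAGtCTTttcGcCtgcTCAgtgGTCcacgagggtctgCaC
Ighg1: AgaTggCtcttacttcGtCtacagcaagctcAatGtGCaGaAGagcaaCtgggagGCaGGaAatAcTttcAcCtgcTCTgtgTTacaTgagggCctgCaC
Ighg3: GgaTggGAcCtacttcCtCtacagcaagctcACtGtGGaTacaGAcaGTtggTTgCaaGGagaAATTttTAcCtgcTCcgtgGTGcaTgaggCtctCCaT
*Ighg2c* differed from *Ighg2b* at 30 of these positions, *Ighg1* at 31 and *Ighg3* at 39. Over the whole aligned transcripts *Ighg2b* and *Ighg2c* were 88.2% identical and their longest identical run was 78 bases. Every 150-base window of the 4 genes, the length of 1 read, was absent from the transcripts of any other gene, although 84.8% to 98.2% of 31-base windows were unique.

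Among heavy constant counts *Ighm* held 87.1% and 96.7% in M7 and M8 and 92.1% and 86.4% in M9 and M10, and the switched genes together held 10.9%, 1.10%, 6.93% and 12.5% in the same order. The groups overlapped for both. *Ighg2b* held 1.81% of the heavy constant counts in M9 (95% Wilson interval 1.23% to 2.65%) and 7.40% in M10 (6.00% to 9.09%), while the intervals for 0 counts in M7 and M8 reach up to 3.66% and 4.05%. *Ighg3* held 0.866% in M9 (0.496% to 1.51%), and the interval for 0 counts in M10 reaches up to 0.346%. The makeup of the switched genes thus differed between M9 and M10 beyond counting error.

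**Figure D2:**
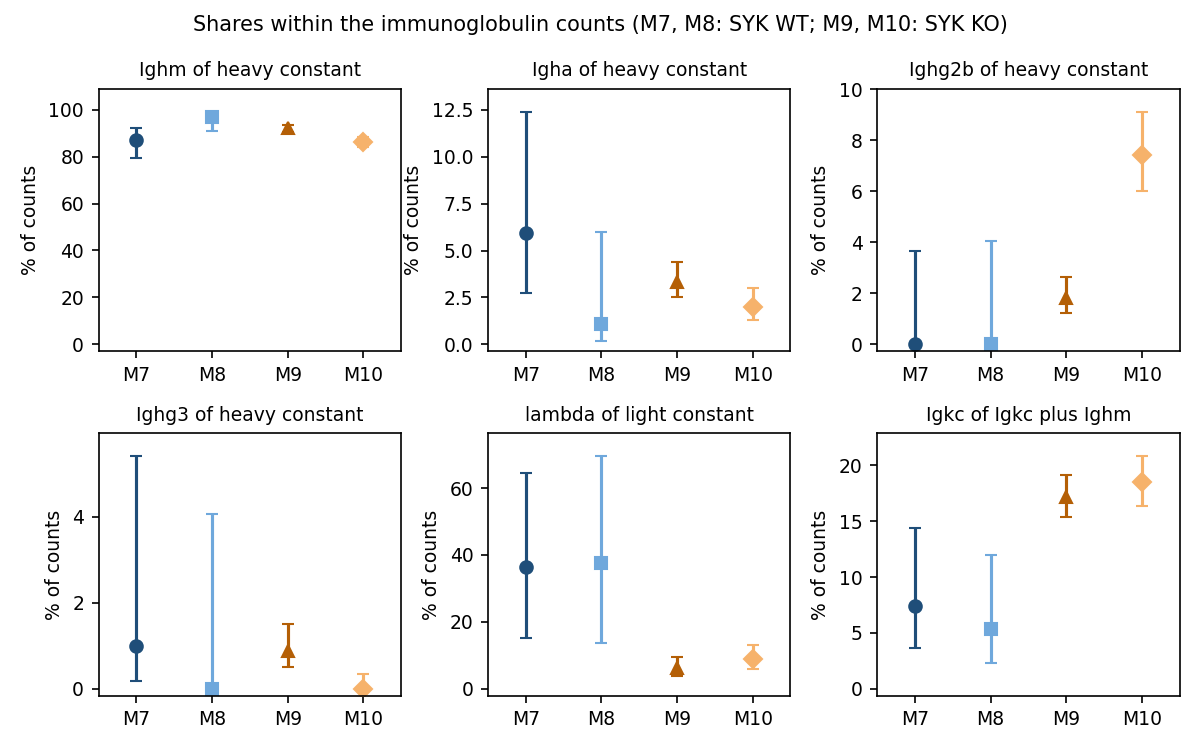
Shares of counts within each library with 95% Wilson intervals, in percent. *Ighg2b* was 7.40% of heavy constant counts in M10 and 1.81% in M9, and *Igkc* was 17.2% and 18.5% of *Igkc* plus *Ighm* counts in M9 and M10 against 7.37% and 5.38% in M7 and M8.

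*Igkc*, the kappa constant gene on chromosome 6 (70726435 to 70726966, plus strand), had 7 counts in M7 and 5 in M8, and 264 in M9 and 217 in M10. The level was 0.229 ± 0.0366 CPM in the SYK WT libraries and 12.3 ± 0.702 CPM in the SYK KO libraries (SD over 2 libraries each), for a log2 fold change of 5.71 (SE 0.401, adjusted p = 0.000674). *Igkc* passed the test in each of the 13 alternatives in which it was tested, with log2 fold changes from 2.13 to 5.88, the lowest with pan-leukocyte genes as the scale.

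*Igkc* differed more between the groups than *Ighm*. Its share of *Igkc* plus *Ighm* counts was 7.37% in M7 (95% Wilson interval 3.61% to 14.4%), 5.38% in M8 (2.32% to 12.0%), 17.2% in M9 (15.4% to 19.1%) and 18.5% in M10 (16.4% to 20.8%). The intervals of the groups did not overlap, and such a share does not depend on how libraries are scaled. With 2 libraries against 2 an exact permutation test cannot give a p below 0.333. Per kilobase of exon, the *Igkc* level was 0.282 and 0.201 of the *Ighm* level in M7 and M8 and 0.734 and 0.804 of it in M9 and M10.

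The lambda constant genes were rarer. *Iglc1* had 0 counts in M7 and M8, 5 in M9 and 19 in M10, at least 5.52-fold higher against a floor of 3 counts in each SYK WT library. *Iglc2* had 3, 3, 7 and 0 counts in M7, M8, M9 and M10, and *Iglc3* had 1, 0, 5 and 2. *Iglc2* groups overlapped, since M10 had none. Lambda genes held 6.05% of light constant counts in M9 (3.81% to 9.47%) and 8.82% in M10 (5.84% to 13.1%), and 4 of 11 and 3 of 8 counts in M7 and M8, where the intervals reached from 13.7% to 69.4%.

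*Jchain*, on chromosome 5 (88519809 to 88527891, minus strand), had 2 and 4 counts in M7 and M8, and 37 and 29 in M9 and M10. Its log2 fold change was 3.80 (SE 0.758, adjusted p = 0.0108). The call was lost without M7 (3.33, adjusted p = 0.165) and without M8 (4.42, adjusted p = 0.114). The log2 fold change of *Jchain* was 1.04 with macrophage genes as the scale (adjusted p = 0.445) and 0.19 with pan-leukocyte genes (adjusted p = 0.881). *Jchain* per *Ighm*, both per kilobase, was 0.0217 in M9 and 0.0227 in M10, within the counting intervals of M7 and M8.

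Of the V genes, *Igkv3-2* stood out by its counts. It is the second most *Igkc*-proximal gene of the kappa V members (70698449 to 70699067 on chromosome 6, plus strand), 27.4 kb upstream of *Igkc*. *Igkv3-2* had 1 and 2 counts in M7 and M8 and 58 and 45 in M9 and M10, a log2 fold change of 5.38 (SE 0.762, adjusted p = 0.00365) and a ratio of counts per library size of 45.8 with an exact 95% interval from 15.3 to 226. It passed with each library left out, and not when libraries were scaled to macrophage genes (adjusted p = 0.0587) or pan-leukocyte genes (adjusted p = 0.172). *Igkv3-2* held 30.9% of kappa V counts in M9 (24.7% to 37.8%) and 39.8% in M10 (31.3% to 49.0%).

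Salmon can divide reads between similar V genes, so the sequence of *Igkv3-2* is shown beside the other selected genes of kappa V family 3. The 100-base windows lie in exon 2 on the plus strand of GRCm38, at chr6:70698941-70699040 for *Igkv3-2*, chr6:70704051-70704150 for *Igkv3-1*, chr6:70663769-70663868 for *Igkv3-5*, chr6:70588651-70588750 for *Igkv3-9* and chr6:70573104-70573203 for *Igkv3-10*, and read from 5′ to 3′. Capitals in *Igkv3-2* mark positions where any of the others differs from it, and capitals in the others mark their differences from *Igkv3-2*.
Igkv3-2: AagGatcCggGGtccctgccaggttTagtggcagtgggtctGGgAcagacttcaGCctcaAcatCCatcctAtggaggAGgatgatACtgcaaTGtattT
Igkv3-1: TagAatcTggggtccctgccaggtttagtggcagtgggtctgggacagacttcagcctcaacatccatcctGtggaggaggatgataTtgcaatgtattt
Igkv3-5: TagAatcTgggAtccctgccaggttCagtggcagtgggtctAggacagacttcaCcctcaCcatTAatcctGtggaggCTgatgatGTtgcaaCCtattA
Igkv3-9: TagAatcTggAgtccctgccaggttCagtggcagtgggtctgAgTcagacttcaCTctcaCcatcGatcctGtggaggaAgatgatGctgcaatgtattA
Igkv3-10: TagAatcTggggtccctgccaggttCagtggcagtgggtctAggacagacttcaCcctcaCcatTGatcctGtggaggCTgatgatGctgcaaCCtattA
*Igkv3-1*, the nearest in sequence over this window, differed from *Igkv3-2* at 5 positions. Over the aligned transcripts they were 92.8% identical with a longest identical run of 63 bases. All 150-base windows of *Igkv3-2* were unique to it, and 63.5% of its 31-base windows. *Igkv3-5* and *Igkv3-10* were 98.3% identical with a shared run of 159 bases, longer than 1 read. *Igkv3-5* had 7 counts in M9 and 0 in M10, and *Igkv3-10* had 0 in M9 and 6 in M10. Of 150-base windows 95.7% of *Igkv3-5* and 95.2% of *Igkv3-10* were unique, so the assignment between this pair is uncertain for reads within the shared run. *Igkv3-9* had 8 counts in M9 and 0 elsewhere, and *Igkv3-1* had 1 in M9 and 4 in M10.

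The libraries labelled SYK KO were alike in *Igkv3-2*, and many other V genes were counted in only one of them. Of all 348 V genes 57 were counted in M9, 27 in M10, 12 in M7 and 5 in M8. M9 and M10 shared 17 of them, 29.8% of those in M9 and 63.0% of those in M10. For kappa V genes they shared 13, 37.1% of those in M9 and 68.4% of those in M10, and for heavy V genes they shared 3, 15.0% of those in M9 and 42.9% of those in M10. Among the 30 selected V genes, 16 had over 3 counts in one SYK KO library and 0 in the other, 14 were counted in both, and 24 had 0 counts in M7 and M8. With few counts in M7 and M8, the minimum of 5 summed counts nearly fixed that a gene at 0 in one SYK KO library had over 3 in the other. Most of these genes had under 10 counts, where absence from a library of this depth does not show that the gene was not expressed. The overlap was not compared with that of other genes of similarly low counts.

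**Figure D3:**
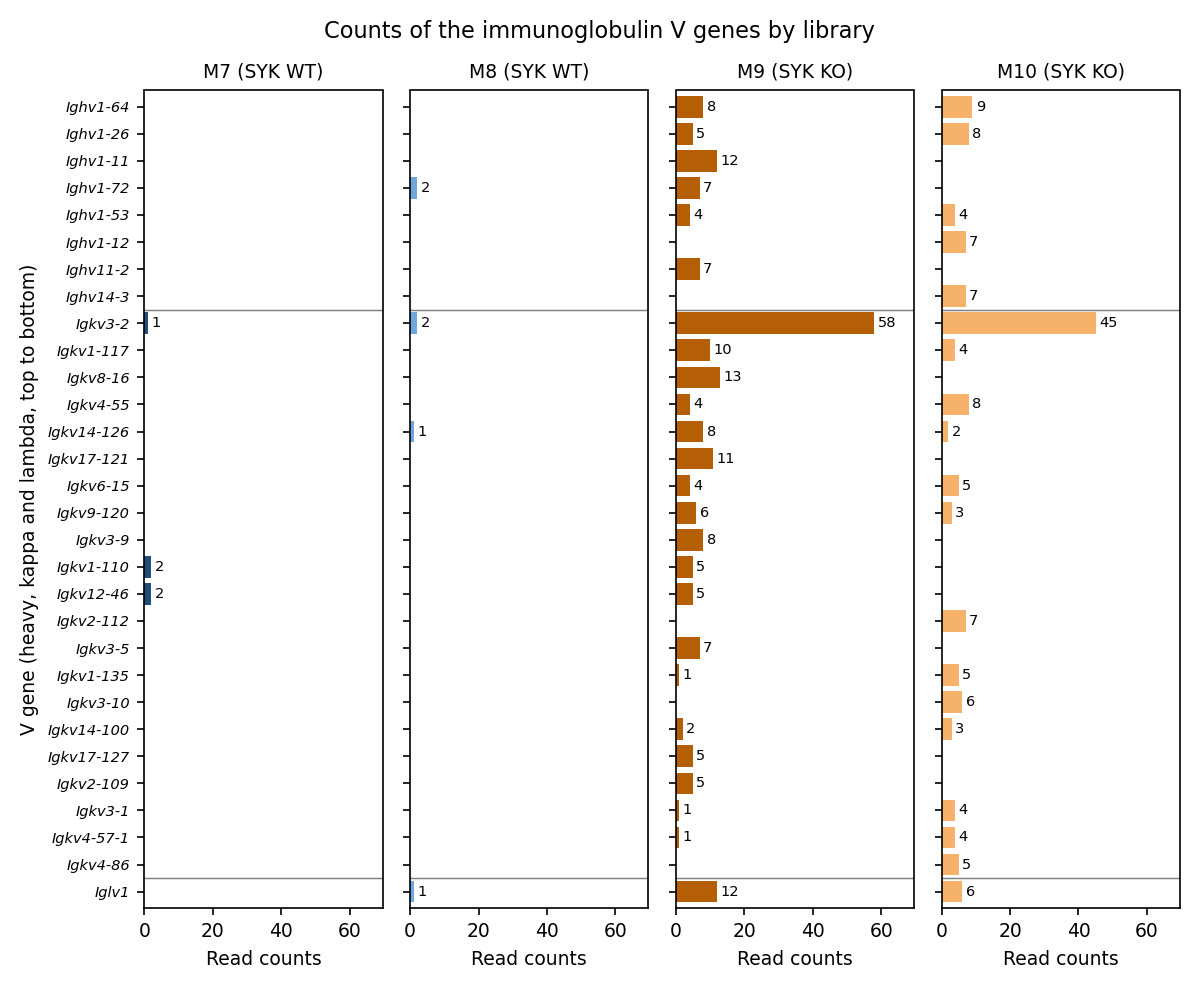
Read counts of the 30 selected V genes in each library, heavy V genes above, kappa V genes in the middle and the lambda V gene at the bottom. *Igkv3-2* had 58 counts in M9 and 45 in M10, and many others were counted in only one of these libraries.

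Among heavy V genes *Ighv1-64* was the most counted in M10, with 0, 0, 8 and 9 counts in M7, M8, M9 and M10, at least 3.80-fold higher against the floor. *Ighv1-26* had 5 counts in M9 and 8 in M10 and none in M7 or M8. *Ighv1-11* was the most counted heavy V gene of M9, with 12 counts, and had 0 in the other libraries. Its neighbour *Ighv1-12* had 7 counts in M10 and 0 elsewhere, as had *Ighv14-3*. *Ighv11-2* had 7 counts in M9 only, and *Ighv1-72* had 7 in M9 and 2 in M8. Only 71.3% of 150-base windows of *Ighv1-72* were unique, the others being shared with *Ighv1-62-3*.

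*Ighv1-11* and *Ighv1-12* lie next to each other among the selected heavy V genes and were counted in different libraries, so the same window of exon 2 is given for both, on the minus strand of GRCm38, at chr12:114612351-114612450 and chr12:114615958-114616057. Capitals mark the 25 positions at which they differ.
Ighv1-11: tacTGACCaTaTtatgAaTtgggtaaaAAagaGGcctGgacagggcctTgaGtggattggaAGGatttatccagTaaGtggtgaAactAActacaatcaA
Ighv1-12: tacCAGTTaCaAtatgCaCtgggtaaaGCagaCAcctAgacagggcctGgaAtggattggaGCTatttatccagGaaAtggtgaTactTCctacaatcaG
The aligned transcripts were 78.3% identical with a longest shared run of 31 bases, and every 150-base window of each was unique, so that whole reads tell them apart.

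Of the other kappa V genes among the most counted, *Igkv8-16* had 13 counts and *Igkv17-121* 11 counts in M9 and neither was counted elsewhere. Only 45.2% of 150-base windows of *Igkv8-16* were unique, the rest being shared with *Gm43218*. *Igkv4-55* had 4 counts in M9 and 8 in M10, *Igkv2-112* had 7 in M10 only, and *Igkv1-117* had 10 in M9 and 4 in M10. In the libraries labelled SYK WT few V genes were counted. The most counted heavy V genes there, both below the minimum, were *Ighv3-1* with 3 counts in M7 and *Ighv1-85* with 3 in M8, each with 0 elsewhere. *Ighv7-3* had 2 counts in M7 and 2 in M9, and *Ighv1-69* and *Ighv9-3* had 1 each, in M7 only. Of the kappa V genes, *Igkv12-46* and *Igkv1-110* each had 2 counts in M7, 5 in M9 and 0 in M8 and M10, *Igkv19-93* had 2 in M7 only, and *Igkv14-126* had 0, 1, 8 and 2 counts in M7, M8, M9 and M10. The lambda V gene *Iglv1* had 0, 1, 12 and 6 counts in M7, M8, M9 and M10, a ratio of 24.0 with an exact 95% interval from 3.79 to 1001. The other lambda V genes were *Iglv2*, with 1 count in M7 only, and *Iglv3*, with 2 in M9 only. Family 1 held 72.3% of heavy V counts in M9 and 83.3% in M10, and family 3 held 39.4% and 48.7% of kappa V counts.

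The effective number of kappa V genes (the inverse of the sum of squared shares) was 8.44 in M9 and 5.43 in M10, and that of heavy V genes 10.9 and 6.21. M9 had more V counts than M10, 267 against 161, and counts were not thinned to the same number. Heavy V genes were counted less than heavy constant genes per kilobase, at ratios of 0.239 in M9 (counting interval 0.184 to 0.307) and 0.195 in M10 (0.140 to 0.265). For kappa V genes over *Igkc* the ratios were 1.02 in M9 (0.839 to 1.23) and 0.741 in M10 (0.585 to 0.934). In the libraries labelled SYK WT the corresponding intervals were wide, since they rest on 7 and 5 heavy V and 10 and 3 kappa V counts. A gene-level count does not separate transcripts of a rearranged gene from germline transcripts of a constant gene, or the membrane form from the secreted form.

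**Figure D4:**
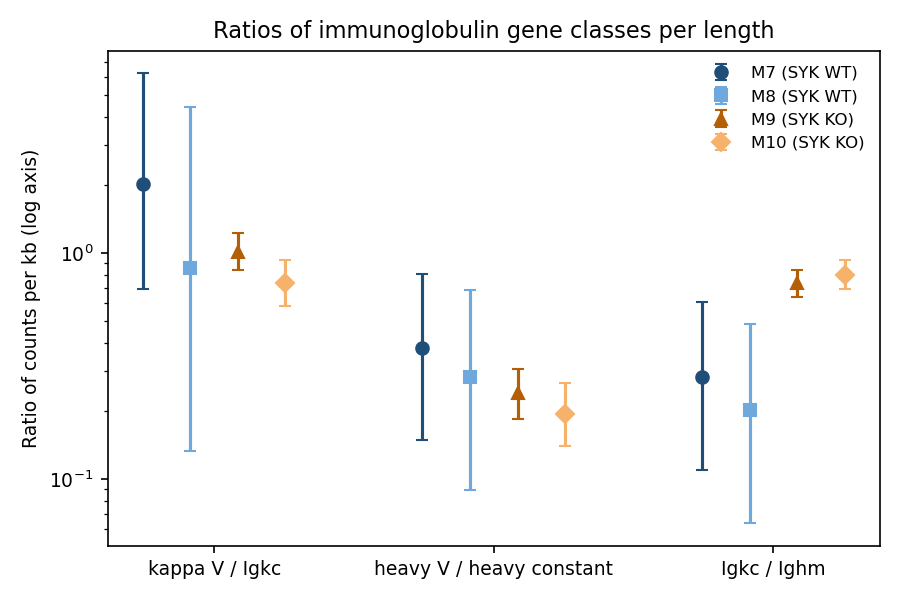
Ratios of counts per kilobase of exon between immunoglobulin gene classes in each library, on a log axis, with exact 95% counting intervals. Kappa V over *Igkc* was 1.02 and 0.741 in M9 and M10, heavy V over heavy constant genes 0.239 and 0.195, and *Igkc* over *Ighm* 0.734 and 0.804.

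Genes that mark the cells which make immunoglobulin did not all move with the immunoglobulin genes. Of 10 plasma cell genes 7 were tested, of which 4 rose and 2 fell in the libraries labelled SYK KO, with a median log2 fold change of 0.88. *Irf4*, a transcription factor of plasma cells that some myeloid cells also express, had 5 and 13 counts in M7 and M8 and 116 and 125 in M9 and M10 (log2 fold change 4.12, adjusted p = 0.00418). *Prdm1*, which drives plasma cell differentiation, had 65, 52, 305 and 182 counts. *Derl3* and *Xbp1* also rose. *Sdc1*, the plasma cell surface antigen CD138, which many epithelial and stromal cells also carry, fell from 7670 and 6057 counts to 3309 and 3001. *Txndc5* fell too. *Mzb1*, which aids IgM assembly in the endoplasmic reticulum, had 6, 12, 7 and 8 counts and did not pass the filter, and *Tnfrsf17*, the receptor BCMA of plasma cells, had 3, 4, 10 and 12. The summed level of the list was 668 to 710 CPM in the libraries labelled SYK WT and 574 to 618 CPM in those labelled SYK KO, most of it *Sdc1* and *Txndc5*. With the macrophage, pan-leukocyte or plasma cell scale 0 of the plasma cell genes rose. The plasma cell scale sums *Mzb1*, *Derl3*, *Pou2af1*, *Tnfrsf17* and *Prdm1*, all on this list, so its 0 was partly built in.

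Of 12 B cell genes 7 were tested, of which 4 rose (*Cd79b*, *Cd22*, *Spib* and *Bank1*), and all 7 estimates were positive. *Cd79b*, a signalling chain of the B cell receptor, had 13 and 6 counts in M7 and M8 and 143 and 96 in M9 and M10, a log2 fold change of 4.05 (adjusted p = 0.00300). Its partner *Cd79a* had 18, 14, 25 and 25 counts (log2 fold change 1.06, adjusted p = 0.202). *Ms4a1* had 13, 6, 9 and 22 counts, *Pax5* 6, 13, 3 and 29, and *Blk* was at 0 in all libraries. Without M7 or without M8 2 of the B cell genes rose, with the macrophage or pan-leukocyte scale 0, and with the plasma cell scale 1. The summed level of the list was 5.57 to 8.38 CPM and 34.3 to 41.7 CPM. The part of B cell and plasma cell genes in the immunoglobulin values was not tested.

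Of 9 genes of immunoglobulin rearrangement and switching 2 were tested and 1 rose, and the recombinase itself was not detected. *Rag1* and *Rag2*, which cut the V, D and J segments, and *Dntt*, which adds bases at the joints, had 0 counts in all libraries, as had *Vpreb2* and *Igll1* of the surrogate light chain. *Vpreb1* had 11, 8, 8 and 22 counts in M7, M8, M9 and M10 (adjusted p = 0.319). *Ung*, which removes uracil from DNA and acts in repair in many cells, rose by a log2 fold change of 1.28 (adjusted p = 0.00517).

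Of 12 genes of protein folding and secretion in the endoplasmic reticulum, all tested, 9 rose and all 12 estimates were positive, with a median log2 fold change of 1.03. *Sdf2l1*, a stress-induced chaperone partner, had the largest log2 fold change, 2.22 (adjusted p = 0.00175), from 780 and 552 counts to 2927 and 1753. *Hspa5*, the chaperone BiP that binds unpaired heavy chains, had a log2 fold change of 0.60 (adjusted p = 0.0877). These genes serve all secretory cells. With total counts as the scale 3 of the 12 rose, without M8 2, and with the macrophage, pan-leukocyte or plasma cell scale 0.

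Of 11 receptors and transporters of immunoglobulin 7 were tested and 6 rose. *Fcgr4*, an activating receptor for IgG2, had the largest log2 fold change, 4.88 (SE 0.219, adjusted p = 0.000486), from 146 and 127 counts to 2735 and 3224. The IgG receptors *Fcgr1* (3.57), *Fcgr3* (3.13) and *Fcgr2b* (2.77), their signalling chain *Fcer1g* (3.64) and the neonatal receptor *Fcgrt* (1.29) also rose on the log2 scale, all with an adjusted p under 0.05. *Fcgr1* is also one of the macrophage markers. *Trim21*, the cytosolic antibody receptor, had a log2 fold change of -0.36 (adjusted p = 0.368). *Pigr*, *Fcmr* and *Fcamr*, which bind polymeric immunoglobulins, had at most 2 counts in any library. *Fcer1a* went the other way, with 11 and 8 counts in M7 and M8 and 0 in M9 and M10, and did not pass the filter. With the macrophage or pan-leukocyte scale 1 of the 7 receptor and transport genes rose.

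**Figure D5:**
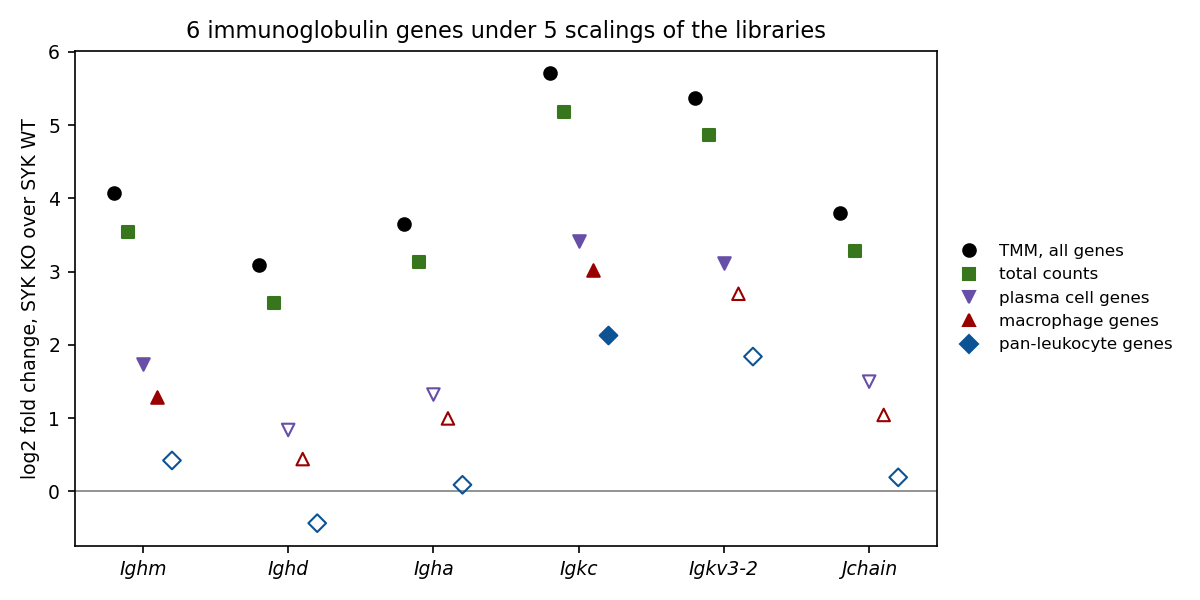
The log2 fold change of 6 immunoglobulin genes, SYK KO over SYK WT, with 5 scalings of the libraries. Filled symbols have an adjusted p under 0.05 in edgeR over all genes, and *Ighg2b* is left out because both SYK WT libraries had 0 counts. Estimates with pan-leukocyte genes as the scale ran from -0.44 for *Ighd* to 2.13 for *Igkc*.

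How far the immunoglobulin genes differed depended on what the libraries were scaled to. With macrophage genes as the scale 3 of the 7 tested genes rose (*Ighm*, *Igkc* and *Ighg2b*), and the median log2 fold change was 1.29 while that of all genes was -2.72. With pan-leukocyte genes 2 rose (*Igkc* and *Ighg2b*), with a median of 0.42 against -3.60 for all genes. With 5 plasma cell genes 4 rose (*Ighm*, *Igkc*, *Ighg2b* and *Igkv3-2*), with a median of 1.73 against -2.29. *Prdm1*, which macrophages can also express, held most of the counts of those 5 genes. Scaling to total counts kept all 7 calls.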

How the data were processed

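The 4 RNA libraries are described as prepared from TAMs of NB9464 tumors, 2 labelled SYK WT and 2 labelled SYK KO. The deposited values are whole-number counts per Ensembl gene, not normalized. The authors aligned reads to mm10 with STAR (2.6.1d, per the submitters' processing notes) and estimated them with Salmon (1.4.0), which can divide reads among similar genes. How whole-number counts were made from its estimates is not given in the sources used here. The labels give a NovaSeq run with paired reads of 150 bases and 2 libraries per group, while the study's methods name a HiSeq run with triplicates and single reads. One line of the labels names BMDMs as the source of RNA, and another names an adoptive transfer.

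Gene symbols, exons and coordinates were taken from GENCODE M21 (GRCm38), which matched 54495 of 54532 genes. The members and gene lists were chosen with earlier results of these data known. Genes named are all constant genes, *Jchain*, lambda V genes, the 3 most counted heavy and kappa V genes of each library (ties included), the 3 members with the largest change, and the listed marker genes. *Igkv1-117*, *Ighv1-62-3*, *Gm43218* and the other family 3 genes were named after their values were seen. Counts were tested with edgeR (4.0.16) in R (4.3.3), using filterByExpr, TMM, glmQLFit and glmQLFTest, with adjustment after Benjamini-Hochberg and calls at 0.05, and the steps were tested on simulated data. DESeq2 (1.42.0) was an alternative. Library totals were 20755886 to 23518045 counts, and 3 counts correspond to 0.109 to 0.163 CPM. Lower bounds of folds use 3 counts in each library of the group at 0. Shares have 95% Wilson intervals and ratios exact conditional intervals, both for counting error only. Uniqueness was computed as the share of 31-base and 150-base windows of each gene's longest transcript that occur in no other gene's GENCODE transcript. Some genes of the marker lists are counted in the totals but not reported here by name.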

Additional observations from a re-analysis of the deposited data

Results flagged for a closer look

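Counts outside the 42 selected genes also differed between the groups. The 44 immunoglobulin genes with 1 to 4 counts in all had 13 and 3 counts in M7 and M8 and 58 and 19 in M9 and M10, which summed to a mean of 0.298 CPM in the libraries labelled SYK WT and 1.93 CPM in those labelled SYK KO. They were set apart because they lie outside the comparisons and their mean was above that of the SYK WT libraries. They are 20 heavy V, 22 kappa V and 2 lambda V genes. The groups did not overlap in CPM, and this difference was not tested.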

How the results depend on the processing

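The 7 calls did not change with DESeq2 size factors, total counts, a robust fit, a threshold of 0.1, a minimum change, or without mitochondrial and rRNA-like genes. The count of genes higher was 3 with the macrophage scale, 2 with the pan-leukocyte scale, 4 with the plasma cell scale and 1 of 1 with at least 10 counts in every library, and 4 to 9 with each library left out. Without M7 or M8 the lone SYK WT library was assumed to vary like the others, *Igha*, *Ighd* and *Jchain* were lost, and *Igkc*, *Ighm*, *Ighg2b* and *Igkv3-2* were called. The median log2 fold change of the 7 genes was 3.54 with total counts and 1.29, 0.42 and 1.73 with the macrophage, pan-leukocyte and plasma cell scales. Over all 42 immunoglobulin genes it was 4.96 in the fit without the filter and 4.54 in DESeq2. With a library left out it was 4.20 to 5.19 over 7 to 10 immunoglobulin genes. These sets are unlike, and 26 of the 42 had 0 counts in both SYK WT libraries. The log2 ratio of summed counts was 3.79 with total counts, 1.55, 0.68 and 1.99 with those scales, and 4.15 to 4.42 with a library left out. *Ighd* reversed to -0.44 with the pan-leukocyte scale and lost its call in DESeq2 (adjusted p = 0.110) and without the filter (adjusted p = 0.0728). With the macrophage and pan-leukocyte scales 0 plasma cell, 0 B cell, 0 secretion and 0 rearrangement genes and 1 receptor gene were higher, and with the plasma cell scale 0 plasma cell, 1 B cell, 0 secretion and 0 rearrangement genes. The plasma cell scale is made of genes of the plasma cell list, so its 0 for that list was partly built in. With total counts 3 secretion genes were higher, and with at least 10 counts in every library 2 plasma cell and 2 B cell genes. With each library left out, 2 to 4 plasma cell, 2 to 5 B cell, 2 to 12 secretion and 0 to 1 rearrangement genes were higher. These scales shift the median of all genes by -2.74 (macrophage), -3.61 (pan-leukocyte), -2.31 (plasma cell) and -0.53 (total counts). Only *Ighm* had at least 10 counts in every library, so depth limits all other genes in the libraries labelled SYK WT. No paired analysis was possible because the labels give no pairing of the libraries.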
